A study of Homo sapiens with 8 samples.

Results

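A set of 10 genes of the contractile and smooth muscle cytoskeleton was followed across 4 genotypes of U2OS cells, an established human osteosarcoma line, by RNA-seq of total RNA. The genes were chosen by symbol, around TNNT2 and other filament genes known to lie under SRF and TGF-beta, and they were listed with earlier results of these data known; they are 10 of the 19414 genes in the deposited tables. Values of these libraries thus helped to choose the genes, so their levels and fold changes are given as a description, without p-values. Zab+MYC cells carried Zab and overexpressed MYC, Zab cells carried Zab alone, MYC cells overexpressed MYC alone, and WT cells had neither, with 2 libraries in each group. Zab (Zαβ) is the usual name for the pair of domains with which the RNA editor ADAR1 binds Z-form nucleic acids; the labels do not describe the construct, its promoter, the MYC vector, the number of clones or any treatment. Nothing in them says that a group's libraries came from separate cultures, so the errors below measure the spread between libraries only, which may be technical. The common dispersion in edgeR, a squared relative spread beyond counting error, was 1.5e-04. Adjusted p-values below are set against the spread between libraries, which were not shown to be independent cultures. Many related genes were named for the largest called changes, from lists drawn up with earlier results of these data known. Adjusted p-values of the related genes are thus a description too. An exact permutation test of 2 libraries against 2 cannot go below p = 0.333.

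Contraction depends on myosin heads that pull on actin filaments. In striated muscle the troponin complex, with troponin T as its link to tropomyosin, gates this by calcium. Smooth muscle and non-muscle cells use phosphorylation of the myosin light chain instead, with calponin and caldesmon as brakes on the filament and alpha-actinin as its cross-linker. Serum response factor (SRF), with myocardin or the actin-sensing cofactors MRTFA and MRTFB, binds CArG boxes in the promoters of many of these genes, and TGF-beta signalling raises several of them in mesenchymal cells. TEAD factors bind the MCAT element, known from muscle promoters that include that of cardiac troponin T.

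Promoter letters are shown for the genes whose 250 bases before the start hold one of these elements and whose levels differ most between genotypes. RefSeq promoters on GRCh38.p14 were matched for 8 of the 10 genes, in 16 windows; TAGLN and MYL9 were not matched. Capitals mark, in TNNT2, the MCAT letters CATTCC at bases 81 to 76 before the start; in ACTA2, the same element on the other strand (GGAATG, 183 to 178 before the start), followed by 2 CArG boxes that differ from the pattern by 1 base in the centre; in CNN2, a CArG box at bases 89 to 80 before the start. The windows are chr1:201377681-201377930 (minus strand) for TNNT2, chr10:88952774-88953023 (minus strand) for ACTA2 and chr19:1026358-1026607 (plus strand) for CNN2. ACTA2 had another window, chr10:88991338-88991587 (minus strand), which held none of these elements and is not shown. The windows were not matched to the transcripts counted in each library.
TNNT2 promoter: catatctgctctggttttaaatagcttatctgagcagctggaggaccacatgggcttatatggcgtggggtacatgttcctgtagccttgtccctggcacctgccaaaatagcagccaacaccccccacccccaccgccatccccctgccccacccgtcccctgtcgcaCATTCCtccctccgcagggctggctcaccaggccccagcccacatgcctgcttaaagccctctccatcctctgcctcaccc
ACTA2 promoter: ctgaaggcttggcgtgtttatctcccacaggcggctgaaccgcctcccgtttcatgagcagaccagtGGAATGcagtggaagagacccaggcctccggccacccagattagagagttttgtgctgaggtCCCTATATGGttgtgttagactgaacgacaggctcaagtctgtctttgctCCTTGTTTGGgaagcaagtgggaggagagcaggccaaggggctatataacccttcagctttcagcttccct
CNN2 promoter: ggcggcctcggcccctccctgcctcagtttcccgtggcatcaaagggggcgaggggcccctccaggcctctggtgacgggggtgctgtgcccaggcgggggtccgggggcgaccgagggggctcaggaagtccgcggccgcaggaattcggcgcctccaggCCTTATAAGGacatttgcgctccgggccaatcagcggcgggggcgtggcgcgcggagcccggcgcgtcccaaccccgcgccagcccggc

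On both strands, a CArG box stood in 2 of the 16 windows (CNN2 and 1 ACTN1 window) and in 1.16% of 35114 promoter windows of the same length. With 1 changed base in the centre it stood in 2 of the 16 (ACTA2 and CALD1), against 5.96% of all windows. The MCAT letters stood in 5 of the 16 windows, of TNNT2, ACTA2, CALD1 and ACTN1, against 11.9% of all. The MYC E-box CACGTG was in none of the 16 and in 6.35% of all windows. A match is a description of letters in this window and not a binding site.

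Exon tags per library ran from 686992 in Zab replicate 1 to 1326166 in MYC replicate 2, so genes of a few CPM (tags per 1e6 exon tags, scaled with TMM factors) rest on single tags. These tag numbers assume that 1 tag is 2 steps of the deposited signal. On that assumption, exon tags made up 69.1% of mapped tags in Zab+MYC, 60.8% in Zab, 76.0% in MYC and 70.9% in WT. As a check of the labels, MYC stood at 707 and 705 CPM in Zab+MYC, 230 and 194 CPM in Zab, 1237 and 1290 CPM in MYC, and 72.6 and 94.8 CPM in WT. ADAR stood at 1068 and 1019 CPM in Zab+MYC, 6003 and 6198 CPM in Zab, 247 and 230 CPM in MYC, and 264 and 270 CPM in WT. Zab+MYC cells thus had less MYC than MYC cells and less ADAR than Zab cells. Zab cells had more MYC than WT cells, by log2 1.33 ± 0.09 (limma adjusted p = 1.4e-20). The part of these levels in the differences below was not tested. Of the osteoblast markers, COL1A1 and SPARC gave most of the tags, while SP7, COL1A2 and IBSP were at or near 0. The 9 osteoblast markers summed to 882 to 912 CPM in Zab+MYC, 2084 to 2138 CPM in Zab, 503 to 523 CPM in MYC and 2980 to 3072 CPM in WT. The 6 epithelial markers summed to at most 12.9 CPM in any Zab+MYC, Zab or MYC library, and to 42.4 to 42.9 CPM in WT, mostly KRT14. The 5 leukocyte markers reached at most 2.13 CPM, with CD3E at 0 throughout, and the 5 endothelial markers at most 6.46 CPM. The osteoblast sum moved with the genotypes, and its part in the differences below was not tested. In bulk RNA, fewer cells of a type and less RNA per cell cannot be told apart.

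Per kilobase of the counted transcript, the 10 genes spanned a wide range of levels. TPM2 was highest in every group, at 507 ± 28.2 CPM per kb in Zab+MYC, 464 ± 29.1 in Zab, 518 ± 16.1 in MYC and 424 ± 8.22 in WT (SD, n = 2). ACTN1 came next in every group, at 268 ± 1.77 CPM per kb in Zab+MYC, 253 ± 7.08 in Zab, 242 ± 8.06 in MYC and 202 ± 4.40 in WT. TPM1 and CNN2 followed over all libraries, and their order did not hold beyond the spread, with WT levels of 86.5 ± 26.2 CPM per kb for TPM1 and 69.2 ± 4.32 for CNN2. The TPM1 spread per kb holds a change of counted length. Its WT libraries had 175 and 189 CPM on 1663 and 2781 bases, and its Zab+MYC libraries were counted on 1561 and 2781 bases. TPM2 was counted on 1165 bases in WT and 1019 in the other groups, which also enters its levels per kb. Below TPM1 and CNN2 lay TAGLN, MYL9, CALD1 and TNNT2, at 21.8, 17.5, 16.3 and 13.6 CPM per kb averaged over the groups, then ACTA2 at 5.77 and CNN1 at 1.07. The place of TNNT2 in this order differed most between genotypes: it stood at 34.5 ± 1.69 CPM per kb in Zab+MYC, between TPM1 (48.5 ± 30.1) and TAGLN (23.1 ± 3.40). In Zab it stood at 8.57 ± 2.59, next to ACTA2 (10.3 ± 0.684) with spreads that overlap, and in MYC at 1.52 ± 0.938, again next to ACTA2 (1.14 ± 0.271).

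**Figure D1:**
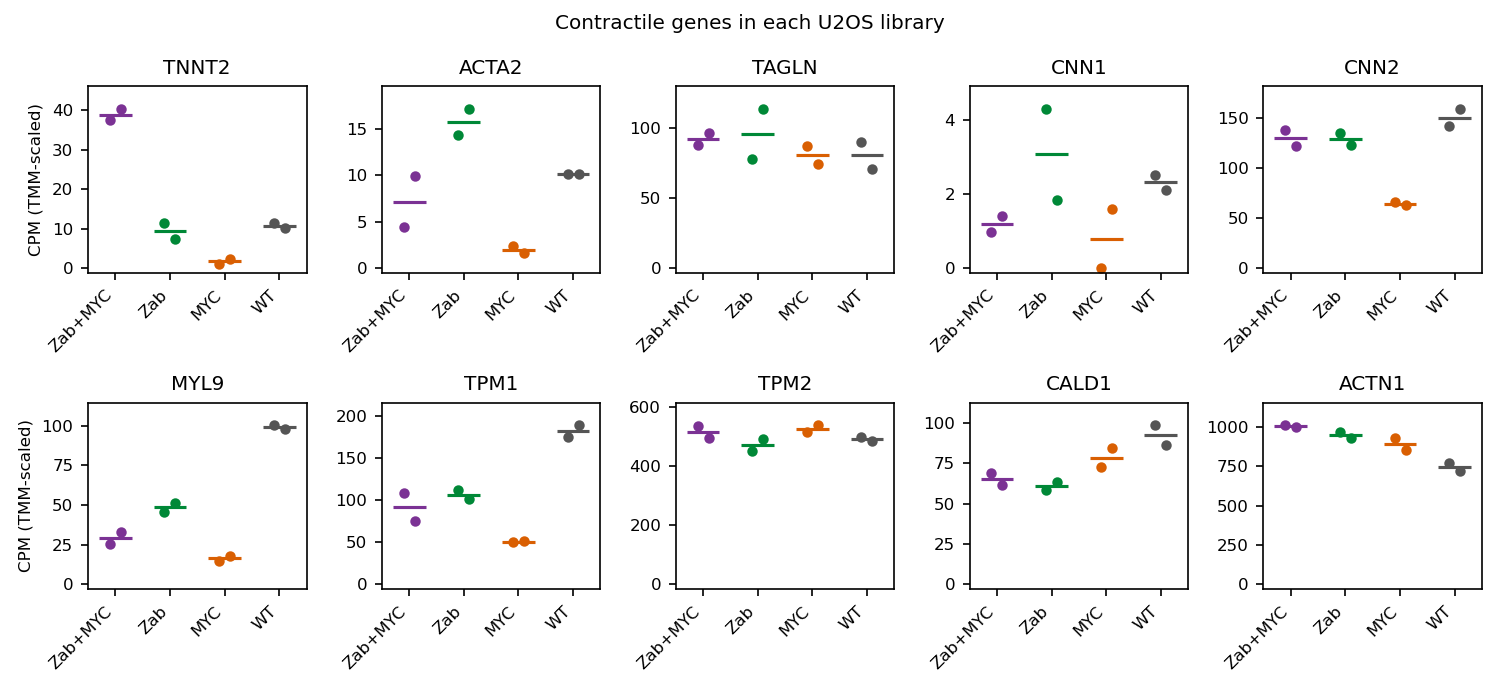
Levels of the 10 contractile genes in each library, in TMM-scaled CPM on linear axes that differ between panels; points are libraries and bars are group means (n = 2). Both Zab+MYC libraries lie at 37.5 and 40.4 CPM for TNNT2, above all 6 others, while MYC libraries are lowest for TNNT2, ACTA2, CNN2, MYL9 and TPM1.

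TNNT2, cardiac troponin T, was the gene that varied most among the genotypes. At chromosome 1 from 201328142 to 201346808 on the minus strand (hg19), it had 37.5 and 40.4 CPM in Zab+MYC, 11.5 and 7.34 CPM in Zab, 0.934 and 2.38 CPM in MYC, and 11.4 and 10.1 CPM in WT. In tags, that was 38.5 and 28.5 in Zab+MYC, 8 and 6 in Zab, 1 and 3 in MYC, and 9 and 9.5 in WT. Zab+MYC lay above every other library and MYC below every other library, while Zab and WT overlapped.

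Cells with MYC alone had less TNNT2 than WT, by log2 -1.82 ± 0.40 (SE, on the log2(CPM + 2) scale, which understates changes of low genes). With Zab added to overexpressed MYC the difference was the other way, log2 3.51 ± 0.40 for Zab+MYC versus MYC, and Zab+MYC also exceeded Zab by log2 1.87 ± 0.40. From rounded tags, Zab+MYC versus MYC was 67 against 4, a ratio of 22.5 with a 95% exact interval of 8.40 to 85.1 that covers counting error only. Against Zab it was 67 to 14, a ratio of 4.18 (2.33 to 8.06). Zab alone against WT differed by log2 -0.18 ± 0.40, which was not called. The Zab difference with MYC exceeded that without MYC by log2 3.69 ± 0.56. DESeq2 gave no adjusted p for TNNT2 in Zab+MYC versus MYC; leaving out any 1 library left that fold change between log2 3.21 and 3.80. TNNT2 was counted on 4 RefSeq transcripts of 1090 to 1132 bases over the 8 libraries, and the part of that choice was not tested.

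Markers of heart muscle were mostly below the filter. Of 7 cardiac markers only NKX2-5, a cardiac transcription factor, passed the filter, and the 7 summed to 84.3 to 95.9 CPM in Zab+MYC, 57.5 to 58.8 CPM in Zab, 114 to 125 CPM in MYC and 34.7 to 39.7 CPM in WT. NKX2-5 gave most of that sum, at means of 81.2 CPM in Zab+MYC, 55.6 in Zab, 108 in MYC and 35.5 in WT. MYC libraries, lowest for TNNT2, were highest in the sum, which thus mainly follows 1 gene. The defining cardiac myosins MYH6 and MYH7 were at or near 0, with at most 1.46 CPM in any library.

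The 3 genes known as early smooth muscle and myofibroblast markers, ACTA2, TAGLN and CNN1, were measured at very different depths. ACTA2, smooth muscle alpha-actin, at chromosome 10 from 90694831 to 90751154 on the minus strand, had 4.38 and 9.92 CPM in Zab+MYC, 14.3 and 17.1 CPM in Zab, 2.34 and 1.59 CPM in MYC, and 10.1 and 10.1 CPM in WT. MYC was lowest and Zab highest, while Zab+MYC replicate 2 lay next to the WT libraries. ACTA2 fell by 1.62 ± 0.44 (log2) in MYC versus WT. It differed by log2 0.55 ± 0.44 in Zab versus WT, 1.15 ± 0.44 in Zab+MYC versus MYC and -1.02 ± 0.44 in Zab+MYC versus Zab, none of them called. All libraries held only 2 to 14 ACTA2 tags. Both WT libraries were counted on one transcript (NM_001613), which no MYC or Zab+MYC library used, and the part of that switch was not tested. Actin genes are near-identical in their coding exons, so reads shared between ACTA2 and its paralogs make this gene uncertain.

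TAGLN, transgelin or SM22, an actin-binding protein, at chromosome 11 from 117070010 to 117078181, had 88.1 and 96.4 CPM in Zab+MYC, 78.2 and 114 CPM in Zab, 86.9 and 74.2 CPM in MYC, and 90.2 and 71.0 CPM in WT. All 4 groups overlapped at least 1 other, and TAGLN was called in no comparison (log2 0.00 ± 0.17 in MYC versus WT, 0.23 ± 0.17 in Zab versus WT, 0.19 ± 0.17 in Zab+MYC versus MYC). CNN1, smooth muscle calponin, at chromosome 19 from 11649666 to 11661138, had 1 and 1 tags in Zab+MYC, 3 and 1.5 in Zab, 0 and 2 in MYC, and 2 and 2 in WT. These numbers are at or near the floor of 3 tags per library, so CNN1 did not pass the filter and a difference was not detectable at this depth.

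CNN2, the calponin of non-muscle cells, which binds actin and tropomyosin, was lower in the MYC libraries than in all others. It stood at 138 and 122 CPM in Zab+MYC, 135 and 123 CPM in Zab, 65.9 and 62.7 CPM in MYC, and 141 and 159 CPM in WT (chromosome 19, 1026607 to 1039064). MYC libraries lay apart from all others, and Zab+MYC overlapped Zab. CNN2 fell by 1.20 ± 0.14 (log2) in MYC versus WT and rose by 0.99 ± 0.14 in Zab+MYC versus MYC. It differed by log2 -0.22 ± 0.14 in Zab versus WT and 0.01 ± 0.14 in Zab+MYC versus Zab, neither called, but the value in Zab versus WT was -0.75 and called on the deposited scale.

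MYL9, the regulatory light chain of smooth muscle and non-muscle myosin II, was lower than WT in every other genotype. At chromosome 20 from 35169922 to 35179849, it had 25.8 and 33.3 CPM in Zab+MYC, 45.9 and 51.4 CPM in Zab, 14.9 and 18.2 CPM in MYC, and 100.3 and 98.0 CPM in WT. The 4 groups did not overlap and ran from MYC, the lowest, through Zab+MYC and Zab to WT. MYL9 fell by 2.45 ± 0.23 (log2) in MYC versus WT and by 1.0 ± 0.23 in Zab versus WT. With both factors it rose by 0.76 ± 0.23 against MYC and fell by 0.69 ± 0.23 against Zab. The rise against MYC was not called with edgeR, DESeq2 or the deposited scale, nor without Zab+MYC replicate 2 or MYC replicate 1; the fall against Zab was not called with DESeq2 or the deposited scale, nor without Zab+MYC replicate 1 or Zab replicate 2. MYL9 was the only one of the 10 counted on the same transcript in all 8 libraries.

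The tropomyosins, coiled-coil proteins that lie along actin, parted. TPM1, at chromosome 15 from 63334946 to 63364113, had 109 and 75.8 CPM in Zab+MYC, 112 and 102 CPM in Zab, 50.4 and 51.6 CPM in MYC, and 175 and 189 CPM in WT. WT was highest and MYC lowest, without overlap, and Zab+MYC and Zab overlapped. TPM1 fell by 1.79 ± 0.16 (log2) in MYC versus WT and by 0.76 ± 0.16 in Zab versus WT, and rose by 0.81 ± 0.16 in Zab+MYC versus MYC. It was counted on 4 transcripts that ran from 1561 to 2781 bases, and the part of that choice was not tested. TPM2, at chromosome 9 from 35681990 to 35690053, had 537 and 496 CPM in Zab+MYC, 452 and 494 CPM in Zab, 516 and 539 CPM in MYC, and 501 and 487 CPM in WT. Its values differed by at most log2 0.13 ± 0.07 in any comparison and none was called on the TMM scale, although both WT libraries were counted on a transcript (NM_213674) that none of the other 6 used. On the deposited scale TPM2 was called in 3 comparisons, at log2 -0.61 in Zab versus WT, -0.36 in Zab+MYC versus MYC and 0.28 in Zab+MYC versus Zab.

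CALD1, caldesmon, which binds actin and myosin and holds back contraction, was lower in Zab than in WT. It stood at 68.6 and 61.7 CPM in Zab+MYC, 58.1 and 63.6 CPM in Zab, 72.4 and 84.5 CPM in MYC, and 98.4 and 86.3 CPM in WT (chromosome 7, 134464385 to 134655480). Both WT libraries lay above all others. They were counted on a transcript of 4257 bases and both Zab+MYC libraries on one of 4982 bases. The part of that choice was not tested. CALD1 fell by 0.58 ± 0.17 (log2) in Zab versus WT, a call that was lost with DESeq2, without Zab replicate 1 and without WT replicate 1. In the other comparisons it was not called, with log2 -0.23 ± 0.17 in MYC versus WT and -0.26 ± 0.17 in Zab+MYC versus MYC, which was -0.58 and called on the deposited scale.

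ACTN1, the alpha-actinin of focal adhesions and stress fibres, ran the other way. At chromosome 14 from 69340840 to 69446083, it had 1010 and 1001 CPM in Zab+MYC, 968 and 931 CPM in Zab, 928 and 853 CPM in MYC, and 770 and 720 CPM in WT. WT libraries lay below all others and Zab+MYC above. ACTN1 rose by 0.26 ± 0.06 (log2) in MYC versus WT. Its rise of 0.35 ± 0.06 in Zab versus WT turned to -0.19 on the deposited scale, and its rise of 0.18 ± 0.06 in Zab+MYC versus MYC turned to -0.15 there. The deposited scale, set by a per-library factor, puts the median gene at log2 -0.51 in Zab versus WT and -0.31 in Zab+MYC versus MYC. Folder names in the file headers mention a spike-in and the submitters' processing notes list the fly build dm6, but neither source says whether the factor came from a spike-in. If it did, TMM scaling, which sets the bulk of genes level, would take out a change shared by most genes, and the deposited scale would keep it. In Zab versus WT the values on that scale were also log2 -0.63 for TNNT2, 0.08 for ACTA2, -0.30 for TAGLN, -1.53 for MYL9, -1.29 for TPM1 and -1.11 for CALD1. The ACTN1 rise in Zab+MYC versus MYC was also not called with RLE scaling, no filter, a filter of 5 CPM or DESeq2, nor without either Zab+MYC library, either MYC library or Zab replicate 1.

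**Figure D2:**
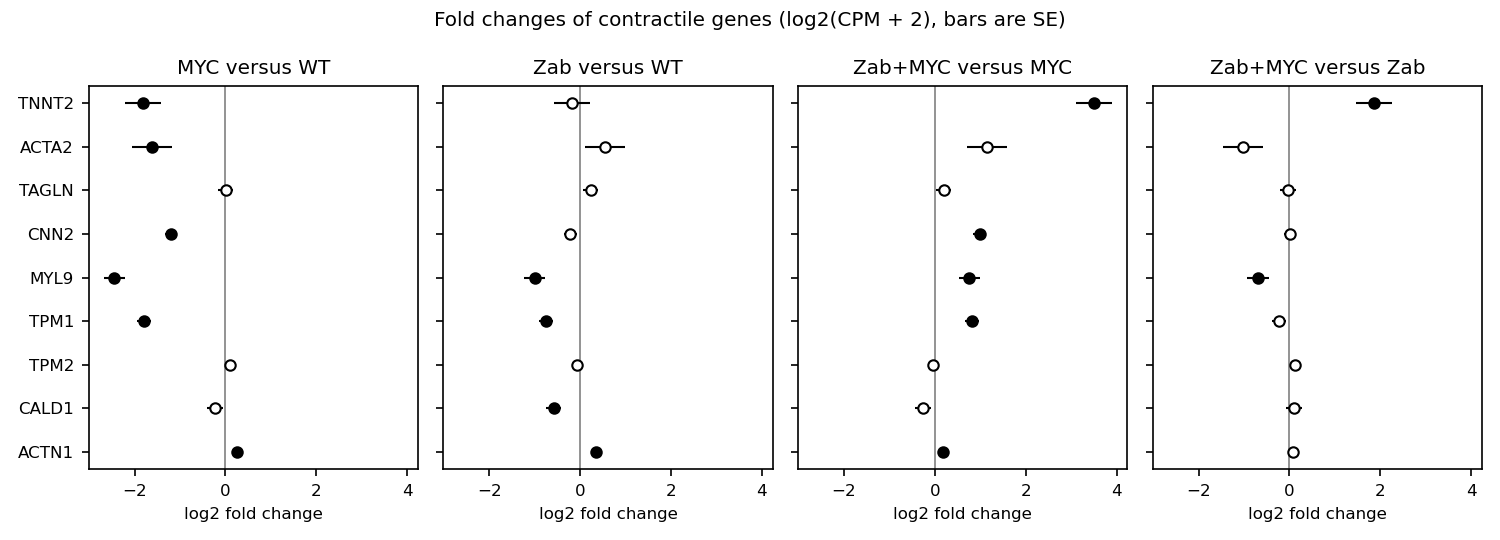
Log2 fold changes (log2(CPM + 2) scale, bars are SE) of the 9 genes that passed the filter, in 4 comparisons; filled points were called at adjusted p under 0.05 in limma and open points were not. TNNT2 stands at -1.82 in MYC versus WT and 3.51 in Zab+MYC versus MYC; ACTN1 at 0.35 in Zab versus WT and 0.18 in Zab+MYC versus MYC turned negative on the deposited scale.

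Counted over the 9 tested genes, MYC versus WT had 1 called higher (ACTN1) and 5 called lower (TNNT2, ACTA2, CNN2, MYL9 and TPM1), where 58.2% of all 9673 tested genes were called, 27.8% higher and 30.4% lower. Zab versus WT had 1 higher (ACTN1) and 3 lower (MYL9, TPM1 and CALD1), where 24.4% of all genes were called, 13.1% higher and 11.3% lower. On the deposited scale that comparison had 0 higher and 6 lower, where 5018 of all 9673 genes were called. Calls over all genes on that scale were not split by direction, and its median gene lay at log2 -0.51 there. In Zab+MYC versus MYC, 5 were called higher (TNNT2, CNN2, MYL9, TPM1 and ACTN1) and 0 lower, where 20.0% of all genes were called, 11.8% higher and 8.14% lower. On the deposited scale it was 3 higher and 3 lower, where 3522 of all 9673 genes were called. Zab+MYC versus Zab had 1 higher (TNNT2) and 1 lower (MYL9), where 26.8% of all genes were called, 14.3% higher and 12.5% lower. The deposited scale gave 3 higher (TNNT2, TPM2 and ACTN1) and 0 lower there, where it called 2942 of all 9673 genes. Since values of these libraries helped to choose the genes, nothing is read from these counts. The median log2 fold change of the 9 was -1.20 in MYC versus WT and 0.76 in Zab+MYC versus MYC, beside -0.04 and 0.00 over all genes. These comparisons share libraries in pairs, so a gene low in MYC lowers one and raises another.

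**Figure D3:**
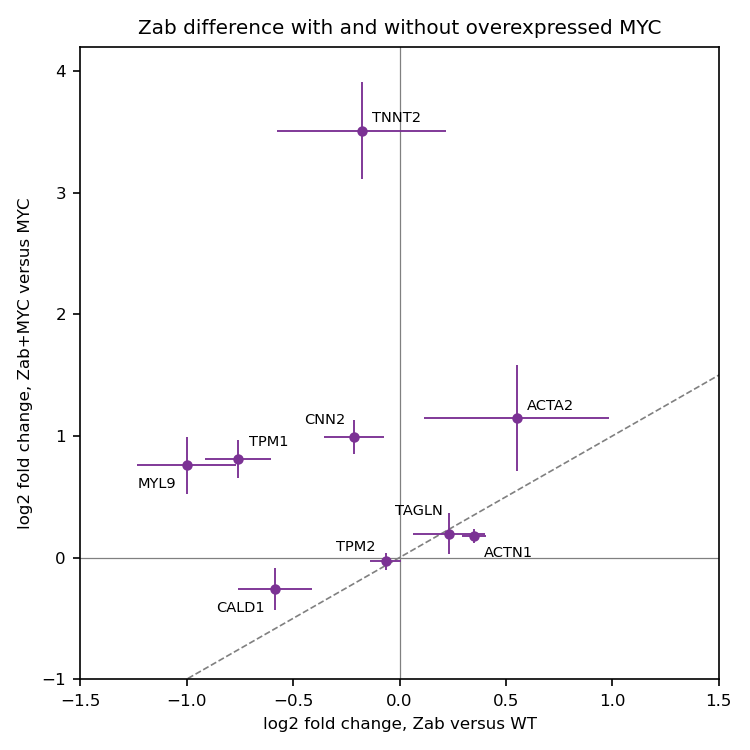
Log2 fold change of Zab+MYC versus MYC (vertical) set against Zab versus WT (horizontal) for the 9 tested genes, with SE bars and a dashed line where both are equal. TNNT2, CNN2, MYL9 and TPM1 lie above the line, by 3.69, 1.21, 1.76 and 1.57, while TAGLN, TPM2 and ACTN1 lie near it; ACTN1 turned negative on both axes on the deposited scale.

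The difference between the Zab comparisons with and without overexpressed MYC was called for 4 of the 9, all in the same direction, where 27.9% of all genes were called, 14.6% higher and 13.3% lower. Beside TNNT2, it was log2 1.76 ± 0.33 for MYL9, 1.57 ± 0.22 for TPM1 and 1.21 ± 0.20 for CNN2. For MYL9 and TPM1 it joined a fall with Zab alone to a rise with Zab beside MYC. It was 0.60 ± 0.62 for ACTA2 and 0.33 ± 0.25 for CALD1, and between -0.17 and 0.03 for TAGLN, TPM2 and ACTN1, none of them called.

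Paralogs of the same protein families, 12 of 19 tested, gave a wider view of each family. In MYC versus WT 2 rose and 9 fell, and in Zab+MYC versus MYC 6 rose and 0 fell, which became 2 and 4 on the deposited scale. In Zab versus WT 0 rose and 2 fell, which became 0 and 12 there. Of all genes, 27.8% rose and 30.4% fell in MYC versus WT. These shares were 13.1% and 11.3% in Zab versus WT, and 11.8% and 8.14% in Zab+MYC versus MYC. The deposited scale called 5018 of all 9673 genes in Zab versus WT and 3522 in Zab+MYC versus MYC. Its median over all genes was log2 -0.51 and -0.31 there, and those calls were not split by direction. MYL6, the essential light chain that sits beside MYL9 on myosin II, had 154 and 160 CPM in Zab+MYC, 232 and 253 CPM in Zab, 48.6 and 49.2 CPM in MYC, and 290 and 296 CPM in WT. Its groups fell in the same order as those of MYL9. MYL6 fell by 2.54 ± 0.12 in MYC versus WT (limma adjusted p = 5.6e-30), rose by 1.64 ± 0.12 in Zab+MYC versus MYC (limma adjusted p = 1.5e-18) and fell by 0.62 ± 0.12 in Zab+MYC versus Zab (limma adjusted p = 4.4e-05).

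TNNT1, slow skeletal troponin T and the nearest relative of TNNT2 measured here, had a higher level per kilobase in every group and was not highest in Zab+MYC. It had 147 and 167 CPM in Zab+MYC, 294 and 264 CPM in Zab, 107 and 109 CPM in MYC, and 317 and 320.5 CPM in WT. TNNT1 fell by 1.54 ± 0.11 in MYC versus WT (limma adjusted p = 9.4e-21) and by 0.82 ± 0.11 in Zab+MYC versus Zab (limma adjusted p = 6.4e-09), where TNNT2 was higher.

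Calponin 3 (CNN3) fell by 1.32 ± 0.24 in MYC versus WT (limma adjusted p = 2.1e-06) and rose by 0.96 ± 0.24 in Zab+MYC versus MYC (limma adjusted p = 0.0018). The rise was not called with DESeq2. TPM4, a non-muscle tropomyosin, fell by 0.72 ± 0.08 (limma adjusted p = 1.3e-12) and ACTN4, the other non-muscle alpha-actinin, by 0.55 ± 0.10 (limma adjusted p = 2.2e-06) in MYC versus WT. The cytoplasmic actins differed from ACTA2. ACTB stood between 986 and 1167 CPM in all 8 libraries, and in MYC versus WT its log2 value of 0.05 ± 0.05 was not called and turned negative with library totals and on the deposited scale. ACTG1 had 1344 and 1296 CPM in Zab+MYC, 665 and 709 CPM in Zab, 1354 and 1378 CPM in MYC, and 1131 and 1240 CPM in WT. Zab was lowest: ACTG1 fell by 0.78 ± 0.05 in Zab versus WT (limma adjusted p = 3.8e-21) and rose by 0.94 ± 0.05 in Zab+MYC versus Zab (limma adjusted p = 2.7e-25).

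TAGLN2 and TPM3, the remaining close relatives, moved by small amounts. TAGLN2 differed by log2 -0.24 ± 0.10 in MYC versus WT (limma adjusted p = 0.038), which was not called with RLE scaling, with DESeq2 and without any 1 of the 8 libraries. In Zab+MYC versus MYC it was log2 0.38 ± 0.10 (limma adjusted p = 0.0035), which was not called on the deposited scale, with DESeq2 and without Zab+MYC replicate 2 or MYC replicate 2. TPM3 rose by 0.33 ± 0.07 in Zab+MYC versus Zab (limma adjusted p = 1.1e-04).

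Genes of striated sarcomeres were mostly below the filter: 2 of 28 were tested, TNNC1, the cardiac and slow skeletal troponin C, and ANKRD1, a cardiac ankyrin repeat protein. TNNC1 had 40.4 and 39.7 CPM in Zab+MYC, 91.1 and 93.6 CPM in Zab, 4.67 and 8.72 CPM in MYC, and 42.3 and 42.9 CPM in WT. MYC was lowest for TNNC1 as for TNNT2, but Zab and not Zab+MYC was highest. TNNC1 fell by 2.40 ± 0.26 in MYC versus WT (limma adjusted p = 5.6e-13), rose by 2.31 ± 0.26 in Zab+MYC versus MYC (limma adjusted p = 2.5e-11) and fell by 1.17 ± 0.26 in Zab+MYC versus Zab (limma adjusted p = 2.5e-04). ANKRD1 fell by 2.49 ± 0.37 in MYC versus WT (limma adjusted p = 2.9e-08) and rose by 2.36 ± 0.37 in Zab+MYC versus MYC (limma adjusted p = 9.5e-07). Both values rest on MYC libraries with 6.5 and 1.5 ANKRD1 tags, near the floor of 3 tags per library.

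Of 15 differentiated smooth muscle genes 4 were tested, and DES, SYNPO2 and PCP4 were at 0 in all libraries. In MYC versus WT 0 rose and 3 fell, in Zab versus WT 3 rose and 1 fell, in Zab+MYC versus MYC 3 rose and 0 fell, and in Zab+MYC versus Zab 0 rose and 1 fell. For Zab versus WT the deposited scale gave 1 higher and 2 lower, where it called 5018 of all 9673 genes. Its median over all genes was log2 -0.51 there, and those calls were not split by direction. Of all genes, 27.8% rose and 30.4% fell in MYC versus WT, and 13.1% and 11.3% in Zab versus WT. These shares were 11.8% and 8.14% in Zab+MYC versus MYC, and 14.3% and 12.5% in Zab+MYC versus Zab. SMTN, smoothelin, fell by 1.05 ± 0.08 in MYC versus WT (limma adjusted p = 1.2e-18) and rose by 1.29 ± 0.08 in Zab+MYC versus MYC (limma adjusted p = 7.6e-22). MYH11, the smooth muscle myosin heavy chain, had at most 12.9 CPM in any Zab+MYC, Zab or MYC library and 27.1 and 20.1 CPM in WT. It fell by 1.74 ± 0.39 in MYC versus WT (limma adjusted p = 8.7e-05). MCAM, the cell adhesion molecule CD146, had 289 and 293 CPM in Zab+MYC, 333 and 360.5 CPM in Zab, 217 and 207 CPM in MYC, and 189 and 201.3 CPM in WT. It rose by 0.82 ± 0.10 in Zab versus WT (limma adjusted p = 1.2e-10), a call that held under every alternative run. MYLK, the kinase that phosphorylates MYL9, had 35.0 and 34.7 CPM in Zab+MYC, 56.0 and 43.4 CPM in Zab, 14.9 and 13.9 CPM in MYC, and 25.9 and 27.5 CPM in WT. MYLK rose by 1.17 ± 0.27 in Zab+MYC versus MYC (limma adjusted p = 6.7e-04). In MYC versus WT it fell by 0.81 ± 0.27 (limma adjusted p = 0.0074), which was not called with DESeq2 and without MYC replicate 2. MYLK differed by log2 0.84 ± 0.27 in Zab versus WT (limma adjusted p = 0.014), which was not called on the deposited scale, with DESeq2 or without Zab replicate 1 or WT replicate 1.

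**Figure D4:**
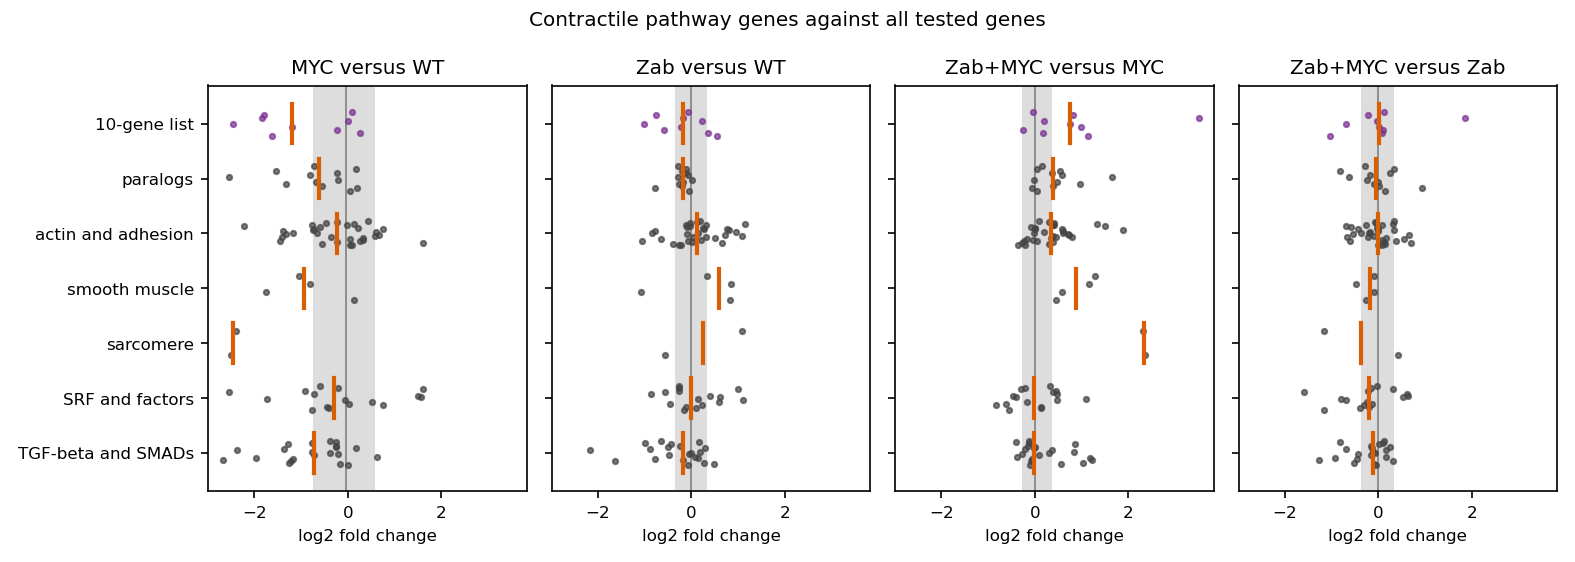
Log2 fold changes of the 9 tested genes (top row of each panel, called the 10-gene list) and of 6 lists of related genes in 4 comparisons; points are genes, orange bars list medians and the grey band the middle of all 9673 tested genes. The medians of MYC versus WT lie at or below that of all genes for every list, and on the deposited scale all genes shift by a median of -0.51 in Zab versus WT and -0.31 in Zab+MYC versus MYC.

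In MYC versus WT the median log2 fold change was -0.04 over all tested genes, and by list -0.61 for paralogs, -0.24 for actin filament and adhesion genes, -0.93 for smooth muscle genes, -2.45 for the sarcomere pair, -0.30 for SRF and its cofactors and -0.72 for TGF-beta genes. For Zab+MYC versus MYC it was 0.00 over all genes, and 0.38, 0.36, 0.88, 2.34, -0.02 and -0.01 for those lists in the same order. The medians of smooth muscle and sarcomere genes were thus farthest from that of all genes in Zab+MYC versus MYC, from only 4 and 2 tested genes. Those of paralogs and of actin filament and adhesion genes, from 12 and 31 tested genes, lay close together. All these medians are on the TMM scale.

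SRF itself was highest in MYC, where 5 of the contractile genes were lowest. It had 211 and 145 CPM in Zab+MYC, 107 and 115 CPM in Zab, 232 and 249 CPM in MYC, and 85.8 and 81.0 CPM in WT. MYC was highest and WT lowest without overlap. SRF rose by 1.51 ± 0.13 in MYC versus WT (limma adjusted p = 4.6e-16) and by 0.65 ± 0.13 in Zab+MYC versus Zab (limma adjusted p = 1.2e-04). The rise against Zab was not called without Zab+MYC replicate 1. It fell by 0.46 ± 0.13 in Zab+MYC versus MYC (limma adjusted p = 0.0096), which was not called with DESeq2, without Zab+MYC replicate 2 and without MYC replicate 2. Its log2 value of 0.40 ± 0.13 in Zab versus WT (limma adjusted p = 0.020) turned negative on the deposited scale.

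Its cofactor MRTFB had 18.98 and 16.3 CPM in Zab+MYC, 33.7 and 30.0 CPM in Zab, 11.2 and 4.36 CPM in MYC, and 29.0 and 28.1 CPM in WT. MRTFB fell by 1.74 ± 0.33 in MYC versus WT (limma adjusted p = 5.3e-06). In Zab+MYC versus MYC it rose by 1.10 ± 0.33 (limma adjusted p = 0.011), which was not called with no filter, without either Zab+MYC library and without MYC replicate 2. MRTFA differed by log2 -0.07 ± 0.29 in MYC versus WT, and its WT libraries lay far apart at 14.5 and 37.1 CPM. In Zab versus WT it differed by log2 1.10 ± 0.29 (limma adjusted p = 0.0026), which was not called on the deposited scale, with DESeq2 or without WT replicate 1. Myocardin (MYOCD) had 0 tags in 7 of the libraries and 3 in WT replicate 1.

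Over the 16 tested genes of SRF, its cofactors and muscle factors, 4 rose and 5 fell in MYC versus WT, and 2 rose and 1 fell in Zab+MYC versus MYC, which became 1 and 7 on the deposited scale. In Zab versus WT 5 rose and 1 fell, which became 1 and 6 there. In MYC versus WT the list's shares were 25% and 31.25%, near the 27.8% and 30.4% of all genes. In Zab+MYC versus MYC they were 12.5% and 6.25%, near 11.8% and 8.14%. In Zab versus WT they were 31.25% and 6.25%, beside 13.1% and 11.3%. The deposited scale called 5018 of all 9673 genes in Zab versus WT and 3522 in Zab+MYC versus MYC. Its median over all genes was log2 -0.51 and -0.31 there, and those calls were not split by direction. Among the TEAD factors, which bind MCAT elements like that marked in TNNT2, TEAD4 rose by 1.61 ± 0.16 (limma adjusted p = 1.4e-14) and TEAD2 fell by 2.53 ± 0.40 (limma adjusted p = 1.1e-07) in MYC versus WT. The MYC libraries held only 4 and 3.5 TEAD2 tags, near the floor of 3 tags per library. TEAD1 fell by 0.87 ± 0.15 in Zab versus WT (limma adjusted p = 6.1e-06). NKX2-5 rose by 1.55 ± 0.18 in MYC versus WT (limma adjusted p = 2.1e-11), where TNNT2 was lower.

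Among the other actin filament and adhesion genes under SRF, 31 of 32 tested, 9 rose and 12 fell in MYC versus WT, and 12 rose and 2 fell in Zab+MYC versus MYC. On the deposited scale Zab+MYC versus MYC had 8 higher and 7 lower. TGFB1I1, the focal adhesion protein Hic-5, had 23.4 and 22.7 CPM in Zab+MYC, 34.4 and 42.2 CPM in Zab, 6.54 and 7.14 CPM in MYC, and 46.7 and 32.8 CPM in WT. It fell by 2.22 ± 0.30 in MYC versus WT (limma adjusted p = 1.1e-09) and rose by 1.50 ± 0.30 in Zab+MYC versus MYC (limma adjusted p = 7.8e-05). PDLIM1, an alpha-actinin binding protein, rose by 1.88 ± 0.41 in Zab+MYC versus MYC (limma adjusted p = 4.1e-04). The MYC libraries held only 3 and 4 PDLIM1 tags, near the floor of 3 tags per library. COTL1, which binds actin filaments, rose by 1.61 ± 0.07 in MYC versus WT (limma adjusted p = 2.5e-34). FLNA, filamin A, fell by 0.66 ± 0.08 in Zab+MYC versus Zab (limma adjusted p = 1.1e-09). In Zab versus WT, 10 rose and 4 fell, and on the deposited scale 1 and 21. Of all genes, 27.8% rose and 30.4% fell in MYC versus WT. These shares were 11.8% and 8.14% in Zab+MYC versus MYC, and 13.1% and 11.3% in Zab versus WT. The deposited scale called 3522 of all 9673 genes in Zab+MYC versus MYC and 5018 in Zab versus WT. Its median over all genes was log2 -0.31 and -0.51 there, and those calls were not split by direction.

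TGF-beta genes, 21 of 24 tested, had 1 higher and 10 lower in MYC versus WT, 0 higher and 7 lower in Zab versus WT, 4 higher and 0 lower in Zab+MYC versus MYC, and 0 higher and 4 lower in Zab+MYC versus Zab. These became 2 higher and 4 lower in Zab+MYC versus MYC, and 0 higher and 14 lower in Zab versus WT, on the deposited scale. It called 3522 and 5018 of all 9673 genes there, at medians over all genes of log2 -0.31 and -0.51. Those calls were not split by direction. Of all genes on the TMM scale, 27.8% rose and 30.4% fell in MYC versus WT, and 13.1% and 11.3% in Zab versus WT. These shares were 11.8% and 8.14% in Zab+MYC versus MYC, and 14.3% and 12.5% in Zab+MYC versus Zab. The ligand TGFB2 had 25.3 and 24.8 CPM in Zab+MYC, 21.5 and 28.2 CPM in Zab, 11.2 and 14.7 CPM in MYC, and 35.3 and 32.3 CPM in WT. TGFB2 fell by 1.27 ± 0.29 in MYC versus WT (limma adjusted p = 1.6e-04). It differed by log2 0.87 ± 0.29 in Zab+MYC versus MYC (limma adjusted p = 0.027), which was not called on the deposited scale, with no filter or without any 1 of those 4 libraries. The ligand TGFB1 stood between 387 and 567 CPM in all libraries. It differed by log2 -0.24 ± 0.08 in MYC versus WT (limma adjusted p = 0.0051) and -0.23 ± 0.08 in Zab versus WT (limma adjusted p = 0.020). Neither was called with no filter or with DESeq2, nor when some single libraries were left out. LTBP2, a matrix protein related to the latent TGF-beta binding proteins, fell by 2.67 ± 0.18 in MYC versus WT (limma adjusted p = 7.6e-22) and rose by 1.22 ± 0.18 in Zab+MYC versus MYC (limma adjusted p = 1.5e-07).

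The receptor TGFBR1 fell by 1.0 ± 0.35 in Zab versus WT (limma adjusted p = 0.026), which was not called with no filter, without either Zab library and without WT replicate 2. Of the 4 comparisons, TGFBR2 was called in Zab+MYC versus Zab alone, by log2 -0.82 ± 0.28 (limma adjusted p = 0.022), and that ended on the deposited scale, with no filter and with DESeq2, as it did without Zab+MYC replicate 1 or Zab replicate 1.

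The genes nearest to TNNT2 were found by the root mean square distance over the 8 libraries between centred log2(CPM + 2) values, whose median over 9672 genes was 1.31. The 5 nearest were C6orf15 at 0.66, MFAP5 at 0.66, MYOF at 0.68, ST6GALNAC5 at 0.69 and KRT15 at 0.70. MYOF, myoferlin, a membrane repair protein, had 58.4 and 53.9 CPM in Zab+MYC, 22.2 and 20.2 CPM in Zab, 15.4 and 15.1 CPM in MYC, and 24.6 and 20.7 CPM in WT. MFAP5, a microfibril protein, had 32.1 and 41.8 CPM in Zab+MYC, 25.8 and 37.9 CPM in Zab, 4.20 and 7.93 CPM in MYC, and 20.8 and 19.6 CPM in WT. For MYOF as for TNNT2 the Zab+MYC libraries lay above all others, while for MFAP5 they overlapped Zab. Among the other tested contractile genes, the nearest was CNN2, at rank 126 of 9672.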

How the data were processed

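RNA-seq of total RNA (Trizol, an Abclonal kit, per the labels' protocols) gave 8 libraries, 2 per genotype. The authors deposited 1 table per library with an exon signal per gene. Per the file headers, HOMER's analyzeRepeats counted raw tags over exons (hg19, RefSeq coding annotation), with 1 transcript retained for each symbol. The submitters' processing notes name HOMER 4.11.1, STAR and Trim Galore 0.6.6, and the builds hg19 and dm6; STAR's version and strand use were not given in the sources used here, nor how the signal was scaled; folder names in the file headers mention a spike-in, whose use in the scaling was not tested. The deposited signal is whole multiples of 1 step per library in 100% of values (tolerance 0.1 step); 1 tag was taken as 2 steps, an assumption under which tag numbers need not be whole. The counted transcript differs between libraries for 50.6% of genes. Introduced and endogenous MYC, and Zab and ADAR, are not separated.

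Recovered tags were scaled with TMM to CPM; filterByExpr kept 9673 genes. limma with a trend was fitted to log2(CPM + 2) of all 8 libraries, 1 mean per group, 4 residual degrees of freedom, two-sided, Benjamini-Hochberg adjusted p under 0.05 called. The adjusted p-values rest on a spread pooled over genes. edgeR and DESeq2 ran on rounded tags as alternatives. The difference between the Zab comparisons was the interaction in the same fit. The fits were tested on simulated data. Tag ratios have 95% exact intervals, and intervals and floors (3 tags) cover counting error only, since the libraries carry no known molecular identifiers and reads may be copies. Tools were DESeq2 1.42.0, edgeR 4.0.16 and limma 3.58.1 in R 4.3.3, and matplotlib 3.10.9, scipy 1.17.1, pandas 2.3.3 and numpy 2.4.6 in Python 3.11.15.

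The 10 genes, the related lists (6 of 7; the other list and 1 further gene are not reported here) and the tests were chosen with earlier results of these data known. The naming rule took all 10 genes, and from each related list and comparison the 2 called genes with the largest rise and the 2 with the largest fall; of these, values are printed mainly for calls that held under every alternative (54 of 96 named calls did). SRF, MRTFA, MRTFB, MYOCD, MYLK, TGFB1, TGFB2, TGFBR1, TGFBR2 and the close paralogs were named whatever their values, MYC and ADAR as label checks, and the 5 genes nearest to TNNT2. Promoters are RefSeq windows on GRCh38.p14 and gene positions hg19; the builds were not converted.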

Additional observations from a re-analysis of the deposited data

Results flagged for a closer look

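The Zab comparison differed with and without overexpressed MYC for 4 contractile genes, by the interaction in limma, which called 27.9% of all genes. Values of these libraries helped to choose the genes, so this is a description. A gene low in MYC also raises this difference. The fold change of Zab+MYC versus MYC exceeded that of Zab versus WT by log2 3.69 for TNNT2, 1.21 for CNN2, 1.76 for MYL9 and 1.57 for TPM1. In Zab+MYC versus MYC all 4 were higher in both Zab+MYC libraries than in both MYC libraries. In Zab versus WT, all 4 but TNNT2 were lower in both Zab libraries than in both WT libraries. MYC transcript was lower in Zab+MYC than in MYC, ADAR transcript was lower in Zab+MYC than in Zab, and MYC transcript was also higher in Zab than in WT, by log2 1.33; the part of these levels in the 4 values was not tested.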

How the results depend on the processing

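Of 198 counts of contractile genes under alternatives 172 stayed within 1.5 times the reported value, and 26 moved; of 842 fold changes 771 kept their direction and side of the threshold, 17 became called, 21 lost the call and 33 turned direction. TNNT2, CNN2 and TPM1 kept their calls in MYC versus WT and the interaction of MYC and Zab in every alternative that gave a value. The alternatives use the same libraries, whose values helped to choose the genes, so they cannot remove the effect of that choice.

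On the deposited scale, counts of contractile genes called were 0 higher and 6 lower in Zab versus WT, 3 higher and 3 lower in Zab+MYC versus MYC, and 3 higher and 0 lower in Zab+MYC versus Zab. For the interaction, 1 gene was called lower with RLE scaling, with the filter of 5 CPM and with edgeR. In Zab+MYC versus Zab, 2 were called lower with a pseudocount of 5 and with edgeR, and 0 with DESeq2, which called 2 higher in Zab+MYC versus MYC with no adjusted p for TNNT2. Restricting the table to genes with 1 transcript left MYL9 alone, so the counts fell by construction to 0 higher and 1 lower in both comparisons against WT, 1 higher in Zab+MYC versus MYC, 0 higher in Zab+MYC versus Zab and 1 higher for the interaction. Leaving out 1 library gave 3 to 5 higher in Zab+MYC versus MYC, 0 to 1 lower in Zab+MYC versus Zab and 0 to 1 lower for the interaction.

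ACTN1 turned from called higher to called lower on the deposited scale in Zab versus WT and in Zab+MYC versus MYC. The other turns, of TAGLN, TPM2, CNN2, TPM1, TNNT2 and the ACTN1 interaction, were of values not called on either side. With library totals, TAGLN was log2 -0.12 and TPM2 -0.034 in MYC versus WT, TPM2 0.024 in Zab+MYC versus MYC, CNN2 -0.022 in Zab+MYC versus Zab and TAGLN 0.055 for the interaction. On the deposited scale, TAGLN was -0.051 in MYC versus WT, -0.30 in Zab versus WT, -0.13 in Zab+MYC versus MYC, 0.12 in Zab+MYC versus Zab and 0.17 for the interaction, and ACTN1 was -0.19 in Zab versus WT, -0.15 in Zab+MYC versus MYC and 0.040 for the interaction. TPM2's interaction was -0.0028 with RLE scaling and with DESeq2, -0.0094 with no filter and -0.024 with the filter of 5 CPM. CNN2 in Zab+MYC versus Zab was -0.00084 with the 4 libraries alone. Leaving out 1 library gave -0.16 to 0.19 for TAGLN in MYC versus WT, -0.017 to 0.50 for TAGLN and -0.44 to 0.10 for TNNT2 in Zab versus WT, -0.29 to 0.24 for TAGLN, -0.070 to 0.11 for CNN2 and -0.47 to 0.037 for TPM1 in Zab+MYC versus Zab, and -0.34 to 0.21 for TAGLN and -0.069 to 0.076 for TPM2 in the interaction. The cause was not tested.

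Over all genes, limma with TMM called 2363 in Zab versus WT, 1933 in Zab+MYC versus MYC and 2592 in Zab+MYC versus Zab. The deposited scale called 5018, 3522 and 2942 in these comparisons, and DESeq2 called 886, 709 and 925.

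Replicate numbers did not pair the libraries (r of same-numbered deviations from -0.02 to 0.01). With the replicate number as a block, ACTA2 in Zab+MYC versus MYC (log2 1.15) became called, as it did with library totals, a pseudocount of 1 and without Zab+MYC replicate 1, and 6 contractile genes were called higher there; calls over all genes were 5650, 2434, 2010 and 2657 in the 4 comparisons. Among the contractile genes, depth limits TNNT2, ACTA2 and CNN1 most, at 0 to 38.5 tags per library.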
